A study of Mus musculus with 8 samples.

Results

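MHC class I molecules display peptides from inside the cell to CD8 T cells, and 11 of the 754 genes of the panel encode class I heavy chains or proteins that prepare their peptides. They were taken by name: the rows whose symbol starts with H2-K, H2-D1, H2-Q, H2-T or H2-M, and Psmb8, Psmb9, Tap1 and Calr. This gave 2 classical heavy chains (H2-K1, H2-D1), 5 non-classical ones (H2-T23, H2-M3, H2-Q1, H2-Q2, H2-Q10) and 4 processing genes. The RNA came from mouse splenic CD8 T cells, purified from C57BL/6 animals by negative selection. The T cells spent 48 hours in 200 µl of conditioned medium with antibodies to CD3 and CD28 at 2 µg/ml. That medium had been collected after 48 hours from B16F10 cells, a mouse melanoma line, which were SSBP4 knockout (knockout medium, 4 samples) or SSBP4 wild type (wild-type medium, 4 samples). The T cells themselves carried no knockout, and both groups received tumour-conditioned medium, so there was no group without it. The labels name neither tumour clones nor separate T cell donors within a group. The spread on which each p-value rests is therefore that of these 8 samples alone, and part of it or all of it may be technical.

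In the class I pathway the proteasome cuts cytosolic proteins, and the TAP transporter, a dimer of Tap1 and Tap2, carries the peptides into the endoplasmic reticulum. There calreticulin, tapasin and other chaperones load them onto a heavy chain. Interferons replace constitutive proteasome subunits by the immunoproteasome subunits encoded by Psmb8 and Psmb9, and raise transcription of the heavy chains. Classical molecules present peptides to the receptors of CD8 T cells, whereas non-classical ones have narrower tasks. The molecule Qa-1, encoded by H2-T23, shows leader peptides of other class I chains to CD94/NKG2A receptors, and H2-M3 presents N-formylated peptides.

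The start-site regions are shown for 4 heavy chains and for the processing genes Psmb8 and Tap1. RefSeq (GRCm38.p6) gave a window, running from 250 bases before to 50 bases after the start site, for 10 of the 11 members. Capitals mark matches on either strand to any of 4 motifs, chosen after the member sequences had been seen. These were GGGATTCCC, a kappaB sequence, AANNGAAA, the core bound by interferon regulatory factors, TTCNNNGAA, an interferon-gamma activation sequence, and TGACG, a cyclic AMP response element core. A match is a run of letters and not evidence of binding. The windows are H2-K1 (chr17:34000298-34000597, minus strand), the first of its 2 listed windows, H2-D1 (chr17:35262844-35263143, plus strand), H2-T23 (chr17:36032652-36032951, minus strand), H2-M3 (chr17:37269984-37270283, plus strand), Psmb8 (chr17:34197945-34198244, plus strand) and Tap1 (chr17:34187306-34187605, plus strand).
H2-K1: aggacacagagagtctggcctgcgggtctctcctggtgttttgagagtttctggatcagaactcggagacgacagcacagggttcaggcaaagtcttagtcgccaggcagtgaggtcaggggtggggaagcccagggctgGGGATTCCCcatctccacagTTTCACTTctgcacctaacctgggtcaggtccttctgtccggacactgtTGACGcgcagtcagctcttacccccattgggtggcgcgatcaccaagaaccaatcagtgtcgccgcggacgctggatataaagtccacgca
H2-D1: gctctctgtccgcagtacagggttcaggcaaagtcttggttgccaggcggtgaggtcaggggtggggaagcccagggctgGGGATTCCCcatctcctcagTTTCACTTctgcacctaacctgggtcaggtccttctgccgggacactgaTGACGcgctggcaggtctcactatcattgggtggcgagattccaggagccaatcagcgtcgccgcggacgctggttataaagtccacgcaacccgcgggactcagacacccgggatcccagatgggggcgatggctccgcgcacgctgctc
H2-T23: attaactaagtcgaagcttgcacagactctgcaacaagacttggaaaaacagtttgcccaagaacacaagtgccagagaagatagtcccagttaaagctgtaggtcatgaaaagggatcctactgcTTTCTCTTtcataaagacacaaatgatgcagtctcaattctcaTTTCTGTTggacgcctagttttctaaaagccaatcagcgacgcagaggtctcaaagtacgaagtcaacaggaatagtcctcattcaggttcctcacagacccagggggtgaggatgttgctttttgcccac
H2-M3: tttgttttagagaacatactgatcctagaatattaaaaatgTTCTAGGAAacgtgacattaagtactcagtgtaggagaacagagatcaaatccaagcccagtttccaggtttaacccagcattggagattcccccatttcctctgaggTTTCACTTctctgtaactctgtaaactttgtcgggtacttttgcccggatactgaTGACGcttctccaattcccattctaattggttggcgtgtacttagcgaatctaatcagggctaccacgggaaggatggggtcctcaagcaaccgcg
Psmb8: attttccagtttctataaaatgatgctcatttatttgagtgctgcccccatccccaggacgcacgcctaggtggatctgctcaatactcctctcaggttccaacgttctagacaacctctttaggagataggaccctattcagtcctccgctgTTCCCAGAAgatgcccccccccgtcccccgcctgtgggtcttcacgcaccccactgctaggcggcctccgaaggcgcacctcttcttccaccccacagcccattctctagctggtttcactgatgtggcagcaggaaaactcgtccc
Tap1: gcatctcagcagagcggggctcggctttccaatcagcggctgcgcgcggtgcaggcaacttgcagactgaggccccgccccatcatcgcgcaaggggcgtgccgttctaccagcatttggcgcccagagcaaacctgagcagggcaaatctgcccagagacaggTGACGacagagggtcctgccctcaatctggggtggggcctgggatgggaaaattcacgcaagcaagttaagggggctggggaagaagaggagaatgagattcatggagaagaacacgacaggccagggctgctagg
Both classical windows held GGGATTCCC, at 110 bases before the start in H2-K1 and 170 in H2-D1, against 0.353% of all 32851 windows. Each also held AANNGAAA, at 90 and 150 bases before the start, and TGACG, at 41 and 101 bases, so the order and spacing of the 3 matches was alike. The H2-K1 window lies wholly inside the listed gene span, which on the minus strand begins at 34000619. Its start site is thus not the outermost one, and its distances should not be set against those of H2-D1. H2-M3 had AANNGAAA at 101 bases and TGACG at 46 bases, no GGGATTCCC, and TTCNNNGAA at 209 bases. H2-T23 had AANNGAAA alone, at 124 and 81 bases. Calr, whose window is not printed, also had AANNGAAA alone, at 129 and 59 bases. Of the 10 members with a window, 7 held AANNGAAA, against 23.9% of all windows, and 5 held TGACG, against 20.8%. These shares only describe the windows, since the motifs were chosen after the member sequences had been seen. Nor were the 10 windows independent, as H2-K1, H2-D1, H2-M3 and H2-Q10 held the same AANNGAAA match letter for letter. TTCNNNGAA occurred in 8.3% of windows and in 2 members, H2-M3 and Psmb8, in Psmb8 at 97 bases before the start. No match overlapped another in the printed windows. Tap1 and Psmb9 point away from each other, with start sites 226 bases apart, so the Tap1 window shares 275 bases with that of Psmb9, and the TGACG match at 86 bases before the Tap1 start belongs to both.

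Values are the authors' normalized nCounter signals, which are counts of barcoded probes multiplied by 1 factor per sample. Totals of recovered counts were 188174, 217944, 311980 and 320804 in knockout medium samples 1 to 4, and 346676, 310338, 309151 and 259954 in wild-type medium samples 1 to 4. Samples 1 and 2 of a medium lay close to each other, and so did samples 3 and 4. The chi-square statistic per degree of freedom over tested genes was 2.12 and 5.01 for these pairs in knockout medium and 3.47 and 3.78 in wild-type medium. Across the pairs it was 46.62 to 66.65 in knockout medium and 9.61 to 24.77 in wild-type medium. Of 17 T cell markers listed 6 were measured, and their summed signal was 1543 to 2308 in knockout medium against 715 to 1052 in wild-type medium. Most of that sum was Fyn, at 702 to 836 against 381 to 456, and Ptprc, at 480 to 879 against 198 to 337. Of the 6 markers Cd247, the CD3 zeta chain, had 153 to 229 against 62.6 to 96.4. The genes of the other CD3 chains and of CD8 were on the list but not among the 6 markers measured. The 7 measured mesenchymal markers, not usual in T cells, summed to 562 to 877 against 6530 to 7868. Most of the wild-type medium sum was Cd34, at 4503 to 5069 against 2.12 to 6.95 in knockout medium. Most of the knockout medium sum was Fn1, at 478 to 810 against 747 to 1129 in wild-type medium. Pdgfra, Col3a1 and Prrx1 were also lower in all knockout medium samples. Pdgfrb went the other way, with means of 36.8 against 22.3, and Col1a2 overlapped between the media. The part that other cells had in the class I results was not tested. Macrophage and monocyte markers (11 measured) summed to 276 to 325 against 295 to 454, and those of neutrophils (7 measured) to 18.1 to 45.2 against 39.2 to 44.6. Each neutrophil marker averaged below 22.08, the background level used for testing. The 5 measured dendritic cell markers summed to 207 to 267 against 72.1 to 96.0, without overlap, and most of that sum was Ccr7, a chemokine receptor gene that T cells also express, at 196 to 257 against 62.8 to 86.9. The B cell marker Ms4a1 also averaged below the background level, with 13.3 to 30.8 against 15.4 to 22.96. Of 5 NK cell markers listed only Klrk1 was measured, at 39.9 to 213 against 20.6 to 155. Of 7 melanocyte markers listed 0 were measured, so these markers could not show whether RNA of melanoma cells was present. In such bulk RNA, more cells of a type and more RNA per cell cannot be told apart.

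A gene was tested when its mean over the 8 samples reached 22.08, a background level set 2 SD above the average negative control count, which left 454 genes. The control sums were whole numbers, as for unscaled counts, whereas gene values carried a factor of 0.792 to 1.33 per sample. The background level is therefore approximate on the scale of the genes. Of the 11 members 9 were tested. H2-Q2 had 5.69 to 13.3 in knockout medium and 6.33 to 10.9 in wild-type medium. H2-Q10 had 9.26 to 35.1 in knockout medium and 3.17 to 19.1 in wild-type medium. Both thus lay at or near background. In limma, with p adjusted over all 454 genes and a threshold of 0.05, 1 member rose in knockout medium (H2-T23) and 3 fell (H2-M3, Psmb8, Calr). Thus 4 of 9 members passed, against 71.6% of all tested genes, of which 46.9% rose and 24.7% fell. That panel-wide split of 213 and 112 genes became 152 and 148 with median scaling, 166 and 136 with quantiles, 149 and 160 with edgeR, 156 and 152 with DESeq2, and 61 and 258 when scaled to T cell genes, while the 4 member calls held under each of these. The remaining 5 members did not pass. The median log2 change was 0.18 over the members and 0.41 over all tested genes, so a member at 0.41 moved like the middle of the panel.

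**Figure D1:**
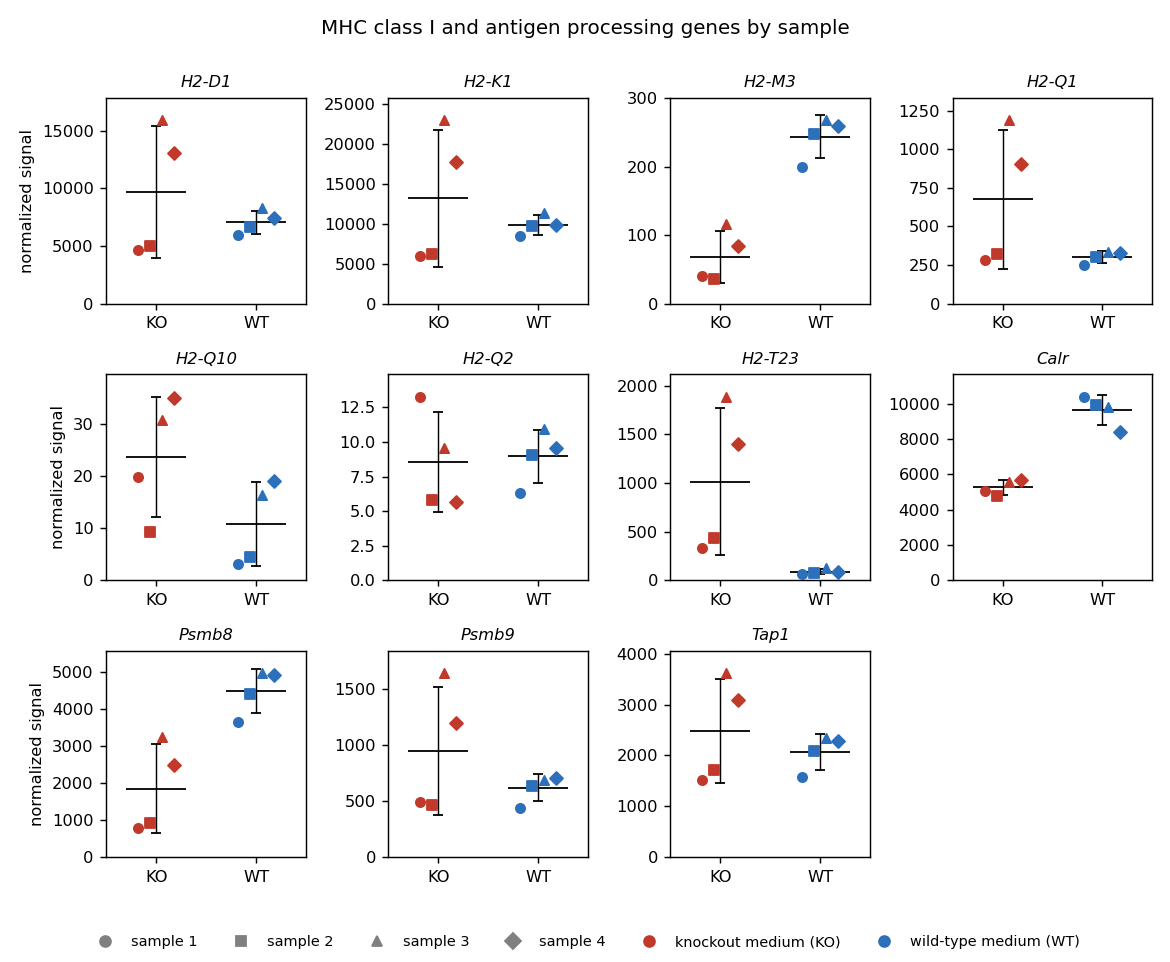
Normalized signal of the 11 genes (vertical axes from 0) in each knockout medium (KO) and wild-type medium (WT) sample, with the mean as a line and the SD as a bar (n = 4 each). H2-T23 stands higher in all 4 knockout medium samples, H2-M3, Psmb8 and Calr stand lower, and H2-K1 and H2-D1 have knockout medium samples 1 and 2 below and samples 3 and 4 above all wild-type medium samples.

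The classical heavy chains H2-K1 and H2-D1 did not pass in the comparison of all samples. H2-K1 had 5925, 6162, 23068 and 17728 in knockout medium samples 1 to 4, against 8453, 9673, 11414 and 9899 in wild-type medium samples 1 to 4. Knockout medium samples 1 and 2 lay below every wild-type medium sample and samples 3 and 4 above every one. The fitted log2 change was 0.17 (SE 0.44, limma adjusted p = 0.741).

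H2-D1 had 4663, 4988, 15972 and 13089 in knockout medium, against 5927, 6625, 8272 and 7412 in wild-type medium. It showed the same split, with a log2 change of 0.25 (SE 0.40, limma adjusted p = 0.594). With numbers 1 and 2 only, both chains were lower in knockout medium, H2-K1 by a log2 change of -0.58 and H2-D1 of -0.38 (limma adjusted p = 9.03e-05 and 0.000959). With numbers 3 and 4 only, both were higher, at 0.93 and 0.88 (limma adjusted p = 0.000321 and 0.000175). These fits set 2 samples against 2 that resemble each other, so their p-values may be too small, and the difference between the number sets was not itself tested.

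H2-T23, the heavy chain of Qa-1, was higher in all 4 knockout medium samples than in any wild-type medium sample. It had 331, 435, 1890 and 1399 in knockout medium, against 67.3, 72.4, 125 and 87.1 in wild-type medium. The media did not overlap, and the means of 1014 ± 757 and 87.9 ± 25.9 (SD, n = 4 each) stood at a ratio of 11.5. The log2 change was 3.19 (SE 0.55, limma adjusted p = 0.000726), and 2.43 with numbers 1 and 2 only and 3.95 with numbers 3 and 4 only. The call held in each of the 22 alternative fits, where the log2 change ran from 1.92 to 3.95.

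H2-M3, the presenter of formylated peptides, moved the opposite way. It had 39.9, 35.9, 116 and 83.4 in knockout medium, against 199, 248, 268 and 259 in wild-type medium. Again the media did not overlap, with samples 1 and 2 in knockout medium the lowest. Means were 68.7 ± 38.0 in knockout medium and 243.6 ± 31.0 in wild-type medium (SD, n = 4 each). The log2 change was -1.97 (SE 0.36, limma adjusted p = 0.00106), -2.52 with numbers 1 and 2 only and -1.42 with numbers 3 and 4 only.

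H2-Q1, a heavy chain gene of the Qa region, had 280, 321, 1192 and 908 in knockout medium, against 248, 300.5, 332 and 328 in wild-type medium. Samples 3 and 4 in knockout medium stood above all others, while samples 1 and 2 lay within the wild-type medium range. Its log2 change of 0.89 (SE 0.45) did not pass (limma adjusted p = 0.104). With the replicate number as a block it did (limma adjusted p = 0.0345), which made 2 members higher, against 50% of all genes in that fit. It also passed without knockout medium replicate 1 or 2 (limma adjusted p = 0.0254 and 0.0485) and with numbers 3 and 4 only, at 1.65 (limma adjusted p = 1.34e-05). Without knockout medium replicate 3 the change was 0.53 (limma adjusted p = 0.2425), and with averaged numbers the adjusted p was 0.307. In all, 1 of the 3 tested non-classical chains rose, 1 fell and 1 did not pass, and neither classical chain passed. The members belong to a family of similar sequences, and whether a probe also counted a relative was not tested.

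Psmb8 and Psmb9, which encode catalytic immunoproteasome subunits, differed from each other. Psmb8 had 778, 912, 3239 and 2488 in knockout medium, against 3663, 4406, 4967 and 4916 in wild-type medium. All knockout medium samples lay below all wild-type medium samples, samples 1 and 2 the furthest. The log2 change was -1.53 (SE 0.44, limma adjusted p = 0.0123), -2.25 with numbers 1 and 2 only and -0.80 with numbers 3 and 4 only. The call was lost when numbers 1 and 2 were averaged and numbers 3 and 4 were averaged (limma adjusted p = 0.116).

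Psmb9 had 496, 464, 1641 and 1202 in knockout medium, against 443, 640, 690 and 707 in wild-type medium. The media overlapped, since knockout medium samples 1 and 2 lay inside the wild-type medium range and samples 3 and 4 above it. Its log2 change was 0.43 (SE 0.41, limma adjusted p = 0.370), and with single samples left out it lay between 0.10 (without knockout medium replicate 3) and 0.70 (without knockout medium replicate 2). Numbers 3 and 4 alone gave 1.01 (limma adjusted p = 0.000273) and numbers 1 and 2 alone gave -0.15 (limma adjusted p = 0.418).

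Tap1, the transporter subunit whose start site neighbours that of Psmb9, had 1524, 1707, 3613 and 3081 in knockout medium, against 1573, 2082, 2340 and 2285 in wild-type medium. Knockout medium samples 1 and 2 were below the wild-type medium samples of their number and samples 3 and 4 above all of them, with a log2 change of 0.18 (SE 0.29, limma adjusted p = 0.594). Its change was 0.53 with numbers 3 and 4 only (limma adjusted p = 0.00139).

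Calr, which encodes the chaperone calreticulin, had 5053, 4776, 5595 and 5675 in knockout medium, against 10414, 9931, 9825 and 8414 in wild-type medium. The samples of a medium lay close together and the media were far apart, with means of 5275 ± 433 in knockout medium and 9646 ± 860 in wild-type medium (SD, n = 4 each). The log2 change was -0.87 (SE 0.10, limma adjusted p = 5.68e-05). Within knockout medium its samples 3 and 4 averaged 1.15 times samples 1 and 2. Of the 4 processing genes 2 fell and 2 did not pass. Scaled to T cell genes, a setting that lowers the median of all genes to -0.85, H2-K1, H2-D1, Psmb9 and Tap1 passed as lower too, with log2 changes of -1.10, -1.02, -0.84 and -1.09 (limma adjusted p of 0.000923 to 0.0173).

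**Figure D2:**
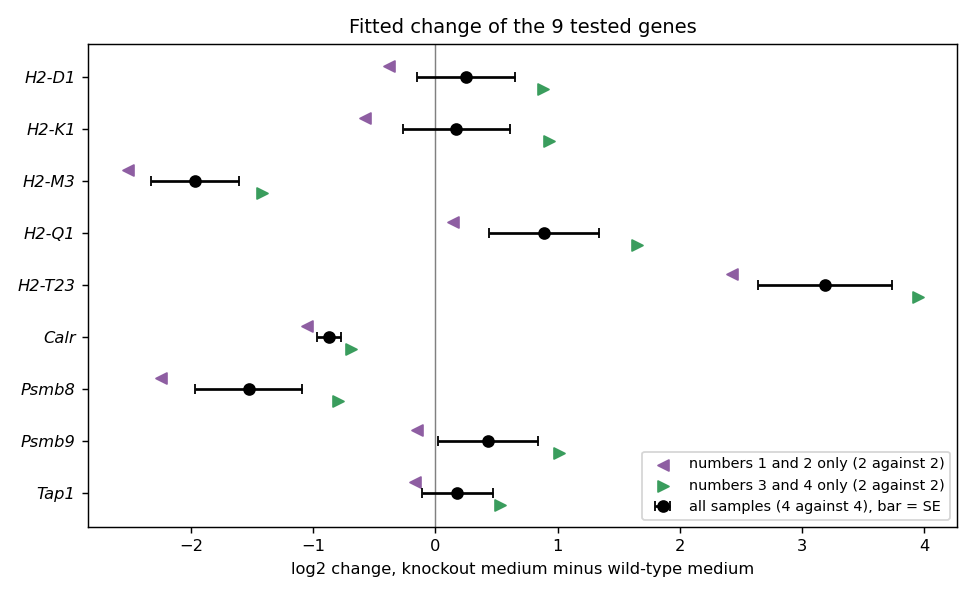
Fitted log2 change, knockout medium minus wild-type medium (horizontal axis), for the 9 tested genes, from all samples (points with SE bars), from numbers 1 and 2 only and from numbers 3 and 4 only. H2-K1, H2-D1, Psmb9 and Tap1 change sign between the number sets, whereas H2-T23, H2-M3, Psmb8 and Calr keep theirs.

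The spread within knockout medium followed the sample numbers. In 7 of the 9 tested members samples 3 and 4 in knockout medium were each at least 2 times samples 1 and 2, against 8.81% of all tested genes. The exceptions were Tap1 and Calr. The mean of samples 3 and 4 over that of samples 1 and 2 was 4.29 for H2-T23, 3.49 for H2-Q1, 3.39 for Psmb8, 3.01 for H2-D1 and 2.63 for H2-M3. In wild-type medium 0 of the 9 members reached 2 times, against 1.76% of all genes, and these ratios ran from 0.897 for Calr to 1.52 for H2-T23. With numbers 1 and 2 only, 1 member was higher and 5 were lower in knockout medium, against 45.6% and 30.4% of all genes. With numbers 3 and 4 only, 6 were higher and 3 lower, against 53.1% and 22.2%. For H2-K1, H2-D1 and Tap1 the knockout medium sample was below the wild-type medium sample of its number at numbers 1 and 2 and above it at numbers 3 and 4, a pattern of 5.51% of tested genes. Recovered totals in knockout medium were also lower in samples 1 and 2 than in samples 3 and 4, while in wild-type medium they were not. The part of depth in this split was not tested.

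Ratios within a sample do not depend on the factor by which that sample was scaled, and they separated the members that the split had mixed. Taken against H2-K1 on the log2 scale and centred on the wild-type medium mean, H2-Q1 was at 0.63, 0.76, 0.75 and 0.74 in knockout medium samples 1 to 4, against -0.06, 0.02, -0.07 and 0.12 in wild-type medium. The SD of H2-Q1 in knockout medium was 1.05 for its own log2 value and 0.06 for this ratio. H2-Q1 thus stood higher relative to H2-K1 in all 4 knockout medium samples, although its own level did not pass.

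The ratios of the other class I chains to H2-K1 varied more in knockout medium, with an SD of 0.25 for H2-T23, 0.24 for H2-M3 and 0.10 for H2-D1. H2-T23 against H2-K1 was at 2.67, 3.01, 3.22 and 3.16 in knockout medium, against -0.12, -0.21, 0.32 and 0.02 in wild-type medium. H2-M3 was at -1.85, -2.05, -2.29 and -2.38, against -0.07, 0.05, -0.07 and 0.09. H2-D1 against H2-K1 differed by 0.08 between the media, and the media overlapped, so the classical pair kept nearly the same ratio to each other.

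Among the processing genes, Psmb8 against H2-K1 was at -1.79, -1.62, -1.69 and -1.69 in knockout medium, against -0.07, 0.00, -0.06 and 0.13 in wild-type medium. Psmb8 against Psmb9 was at -2.22, -1.89, -1.89 and -1.82, against 0.18, -0.09, -0.02 and -0.07. The unequal change of these subunits was thus of like size in all 4 knockout medium samples. Psmb9 and Tap1 against H2-K1 overlapped between the media, with differences of 0.26 and 0.01. Calr against H2-K1 ran from -0.20 to -2.02 in knockout medium, with samples 1 and 2 apart from samples 3 and 4. In all, 4 of 8 ratios to H2-K1 did not overlap between the media, against 41.9% of the other tested genes. The levels themselves did not overlap for 4 of 9 members, against 68.1% of genes.

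**Figure D3:**
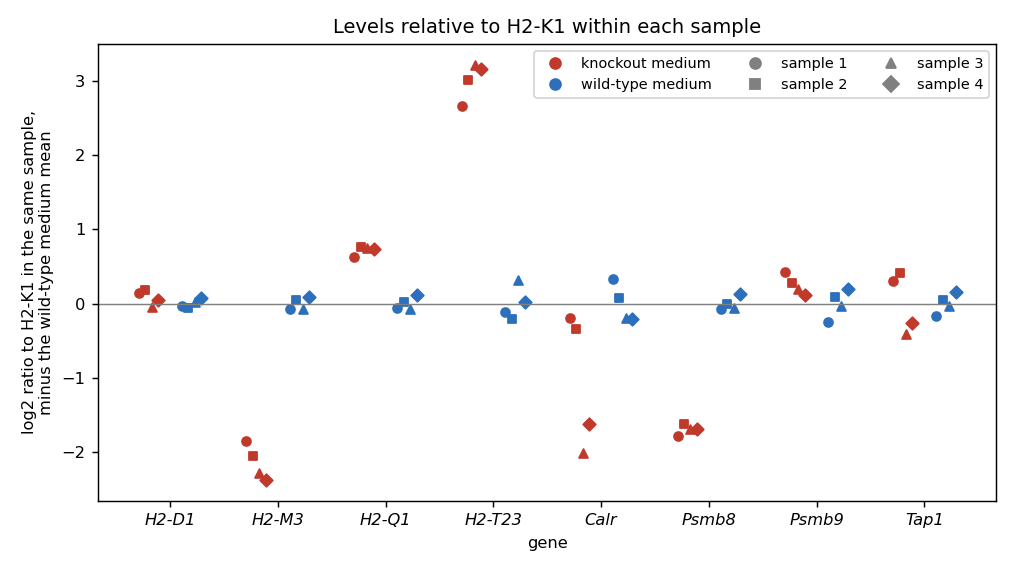
Log2 ratio of each gene to H2-K1 within each sample, minus the mean of that ratio in wild-type medium (vertical axis), by gene (horizontal axis), for the 4 knockout medium and 4 wild-type medium samples. H2-T23 and H2-Q1 lie above, H2-M3 and Psmb8 lie below in all 4 knockout medium samples, and H2-D1 stays near 0.

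Of 17 further assembly and processing genes listed, 3 were measured and 0 passed in limma, also at an unadjusted p under 0.05, against 71.6% of all tested genes. Their median log2 change was -0.13. With median scaling, edgeR and DESeq2, 2 of them, Tap2 and Psme2, passed as lower. Tap2, the partner of Tap1, had 274, 323, 621 and 518 in knockout medium, against 457, 534, 598 and 608 in wild-type medium. Its change of -0.41 (SE 0.25) had a limma adjusted p of 0.177, and of 0.0449 with the replicate number as a block. Tap2 passed as lower with a change of -0.80 with median scaling (limma adjusted p = 0.000753), -0.66 with quantiles (limma adjusted p = 0.00795), -0.84 in edgeR (adjusted p = 0.002455) and -0.78 in DESeq2 (adjusted p = 0.000371). It also passed when scaled to T cell genes, with numbers 1 and 2 only and without knockout medium replicate 3. Tap2 against Tap1 was at -0.57, -0.49, -0.64 and -0.66 in knockout medium, against 0.12, -0.06, -0.06 and 0.00 in wild-type medium, with no overlap. The tapasin gene Tapbp averaged 1414 ± 401 in knockout medium and 1239 ± 237 in wild-type medium (SD, n = 4 each, limma adjusted p = 0.521). Psme2, a subunit of the proteasome activator PA28, averaged 4300 ± 698 and 4676 ± 427 (limma adjusted p = 0.386). Its log2 change was -0.13, and it was -0.53 with median scaling, -0.60 in edgeR and -0.53 in DESeq2 (adjusted p = 0.00256, 0.000398 and 5.96e-08). The lipid-presenting molecule gene Cd1d1 averaged 46.4 ± 16.8 and 43.9 ± 9.55 (limma adjusted p = 0.961), and its relative Cd1d2 lay below background at 1.00 to 5.31 and 1.82 to 7.13.

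Among regulators of class I transcription the calls depended on the scaling. Of 20 listed genes 9 were measured and 7 tested, of which 3 rose and 0 fell in limma, against 46.9% and 24.7% of all tested genes, and 0 were lower at an unadjusted p under 0.05. With median scaling, edgeR and DESeq2, 2 rose (Ifngr1, Ifnar2) and 3 fell (Irf1, Irf2, Ifnar1), and scaled to T cell genes 0 rose and 5 fell. The median log2 change was -0.05. Nfkb1, which encodes a precursor of an NF-kappaB subunit, had 295, 316, 415 and 365 in knockout medium, against 223, 241, 257 and 214 in wild-type medium. Its media did not overlap, and its log2 change was 0.56 (SE 0.13, limma adjusted p = 0.00317). That call was lost with median and positive-control scaling, edgeR, DESeq2 and averaged numbers. Scaled to T cell genes, Nfkb1, Ifngr1 and Ifnar2 had log2 changes below 0, and Nfkb1 passed as lower (limma adjusted p = 0.0130).

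Among the interferon receptor genes, Ifngr1 and Ifnar2 passed, and neither overlapped between the media. Ifngr1, the ligand-binding chain for interferon gamma, averaged 867 ± 247 in knockout medium and 465 ± 87.4 in wild-type medium (SD, n = 4 each), a log2 change of 0.87 (SE 0.21, limma adjusted p = 0.00462). That call was lost with averaged numbers (limma adjusted p = 0.0663). Ifnar2, a chain of the type I interferon receptor, averaged 693 ± 117 and 399 ± 42.9, a change of 0.78 (SE 0.13, limma adjusted p = 0.000716).

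Irf1, an interferon-induced activator of class I genes, repeated the split of the classical chains. It had 2025, 2324, 5249 and 4678 in knockout medium, against 3806, 4185, 3632 and 3973 in wild-type medium. Knockout medium samples 1 and 2 lay below and samples 3 and 4 above every wild-type medium sample, and the log2 change of -0.25 did not pass (limma adjusted p = 0.485). With numbers 1 and 2 only it was -0.88 (limma adjusted p = 2.42e-05), and with numbers 3 and 4 only 0.38 (limma adjusted p = 0.00673). Irf2, Ifnar1 and Socs1 had log2 changes of -0.20, -0.12 and -0.05 (limma adjusted p = 0.259, 0.371 and 0.901). With median scaling Irf1, Irf2 and Ifnar1 passed as lower, at -0.64, -0.59 and -0.51 (limma adjusted p = 0.0123, 0.000375 and 0.00126). In DESeq2 the changes of Irf1, Irf2 and Ifnar1 were -0.58, -0.59 and -0.51 (adjusted p = 0.0328, 3.95e-06 and 1.72e-06). Irf2 and Ifnar1 passed as lower with quantiles too, whereas Irf1 did not.

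The interferon gamma gene itself averaged below the background level of 22.08 over the 8 samples. Wild-type medium samples 3 and 4 and knockout medium sample 3 lay above that level. Ifng had 6.64, 6.95, 27.6 and 19.0 in knockout medium, against 4.75, 1.81, 46.4 and 32.9 in wild-type medium, so samples 3 and 4 were higher than samples 1 and 2 in both media. Ifnb1 had 8.53 to 31.3 in knockout medium and 10.01 to 23.4 in wild-type medium. Neither was tested. Klrk1, which encodes NKG2D, a receptor for class I-like ligands on NK and CD8 T cells, had 39.9, 44.0, 213 and 189 in knockout medium, against 20.6, 28.1, 155 and 77.6 in wild-type medium. It was the only measured gene of 13 class I receptors listed, and its log2 change of 0.82 (SE 0.78) passed only in the fit with the replicate number as a block and in each number set taken alone (limma adjusted p = 0.370, 0.00535 with the block).

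**Figure D4:**
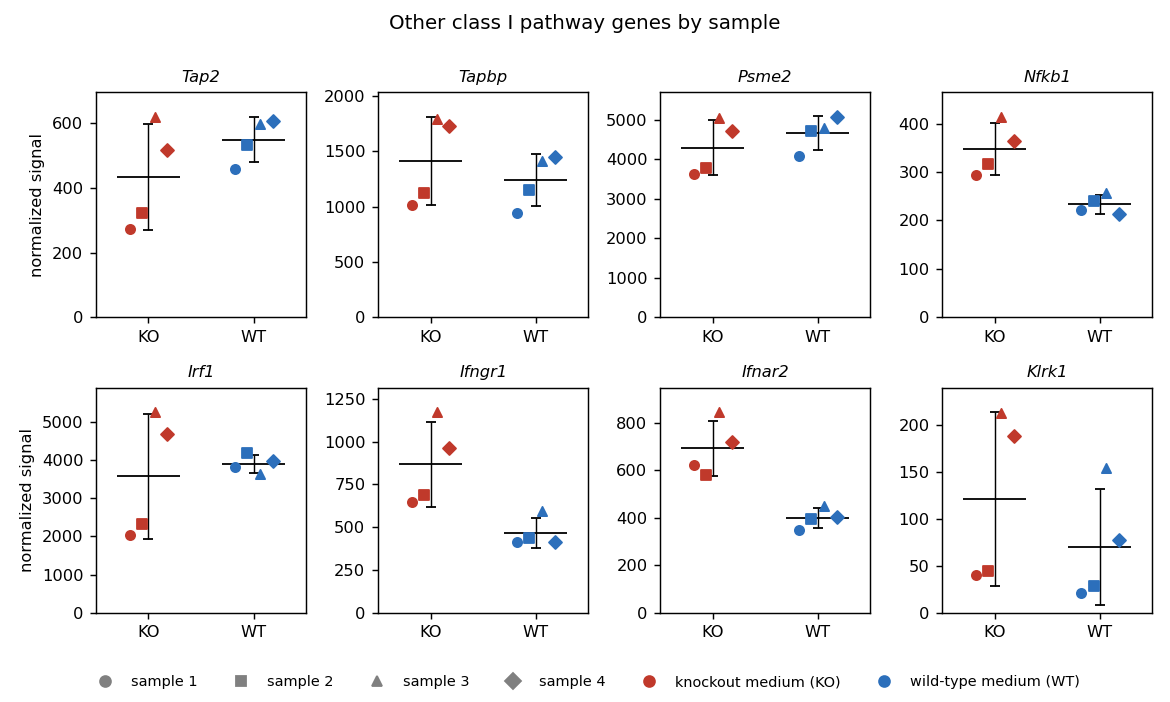
Normalized signal (vertical axes from 0) of 8 other class I pathway genes in each knockout medium (KO) and wild-type medium (WT) sample, with the mean as a line and the SD as a bar (n = 4 each). Nfkb1, Ifngr1 and Ifnar2 lie higher in all knockout medium samples, Irf1 splits by sample number in knockout medium, and Klrk1 splits by number in both media.

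The genes most like each member across the 8 samples were found by Pearson correlation of log2 values, as a description. The samples share scaling and medium, so a difference between media alone raises this measure. H2-K1 and H2-D1 had the same nearest pair, the chemokine gene Cxcl9 (r = 0.957 and 0.98) and Trafd1 (r = 0.973 for both). Cxcl9, which was also the nearest to Psmb9 (r = 0.972), had 18.6, 19.7, 336 and 231 in knockout medium, against 24.6, 24.4, 45.5 and 49.95 in wild-type medium. The next for Psmb9 was Vwa5a (r = 0.964), and for Tap1 the chemokine gene Ccl5 (r = 0.973) and Tapbp (r = 0.968).

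The remaining members had other neighbours. H2-T23 was nearest to Dusp6 (r = 0.997), a phosphatase gene, and to Cd74 (r = 0.996), the invariant chain of MHC class II. Cd74 had 364, 401, 3815 and 3208 in knockout medium, against 30.1, 36.2, 58.2 and 32.9 in wild-type medium. H2-M3 and Psmb8 shared the chemokine gene Cxcl10 (r = 0.982 and 0.972), beside Csf1 for H2-M3 (r = 0.987) and Adam8 for Psmb8 (r = 0.98). Cxcl10 had 98.3, 115, 476 and 383 in knockout medium, against 828, 1046, 1901 and 1956 in wild-type medium. H2-Q1 was nearest to Clic4 and Mx2 (r = 0.99 and 0.978), and Calr to Serpinb6a and Ddr2 (r = 0.993 and 0.989).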

How the data were processed

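The deposited table holds, per the labels, nCounter Myeloid Innate Immunity signals of 754 genes and 14 control probes in 8 samples. Which software and scaling made them is not stated in the sources used here. In each sample the deposited gene signal values were whole multiples of 1 factor (0.792 to 1.33, tolerance 0.1 of a step) for 99.87% to 100% of values above 1, and lower values were listed as 1, so that a recovered count of 0 or 1 there is uncertain. No member was affected. Dividing by the factor gave totals of 188174 to 346676, which limit the precision of low genes.

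limma 3.58.1 (R 4.3.3, lmFit and eBayes with a trend) was fitted on log2(value + 1), two-sided, knockout against wild-type medium, with Benjamini-Hochberg adjustment over 454 genes. This scale understates changes of low genes. edgeR 4.0.16 and DESeq2 1.42.0 were run on recovered counts, and the tests were tried on simulated counts. Members and lists were chosen with earlier results of these data known. The text names all members, tested genes of 4 pathway lists (1 listed regulator is not reported here and stays out of the counts of its list) and the 2 genes most correlated with each member. The main fit did not pair samples, and the replicate number entered as a block only among the alternatives. Same-numbered samples deviated together across genes (correlations 0.454, 0.296, 0.465 and 0.197), but wild-type medium sample 4 was most like knockout medium sample 3. A split of samples 1 and 2 from samples 3 and 4 in both media would also give such correlations. Reading the numbers as pairs rests on the data alone, as no label explains the numbering.
Groups come from the sample titles. The 22 alternatives varied the pseudocount (16), the filter on low values (none, or a mean of at least 50), the scaling, the test, the trend and the block, and the samples used.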

Additional observations from a re-analysis of the deposited data

Results flagged for a closer look

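Among 34 tested genes (the members, those of the pathway lists and those most like a member), each checked in both media, 1 of 68 groups of 4 samples held a value standing apart from the rest by Dixon's criterion, and chance alone gives about 1 in 20. It was Ifngr1 in wild-type medium sample 3, at 595, where the other samples of that medium had 413 to 439.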

How the results depend on the processing

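Of the 4 class I calls, those of H2-T23, H2-M3 and Calr held in all 22 alternatives, and that of Psmb8 in 21. Over the panel 213 genes were higher and 112 lower in knockout medium, and 61 and 258 when scaled to T cell genes. That scaling gave 7 class I members lower. The members counted higher were 2 with the replicate block and 6 with numbers 3 and 4 only, and those lower were 5 with numbers 1 and 2 only. With each sample left out in turn, 202 to 225 genes were higher and 104 to 119 lower, with 1 to 2 members higher and 3 to 3 lower. The block added H2-Q1, Tap2 and Klrk1 and changed no other call among the 21 tested members and pathway list genes. The cause of these shifts was not tested.

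Signs turned as follows, as log2 changes. Scaled to T cell genes they were -1.02 for H2-D1, -1.10 for H2-K1, -0.37 for H2-Q1, -0.84 for Psmb9, -1.09 for Tap1, -1.10 for Tapbp, -1.23 for Cd1d1, -0.70 for Nfkb1, -0.40 for Ifngr1, -0.48 for Ifnar2 and -0.43 for Klrk1. For H2-D1, H2-K1, Tap1, Tapbp and Cd1d1 they were -0.14, -0.22, -0.21, -0.23 and -0.37 with median scaling, -0.08, -0.12, -0.25, -0.30 and -0.42 with edgeR, and -0.01, -0.05, -0.18, -0.23 and -0.35 with DESeq2. Quantile normalization gave -0.03 for Tapbp, 0.13 for Psme2 and -0.50 for Cd1d1, and positive-control scaling -0.13 for Cd1d1. Numbers 1 and 2 alone gave -0.38 for H2-D1, -0.58 for H2-K1, -0.15 for Psmb9, -0.17 for Tap1 and -0.50 for Cd1d1, and numbers 3 and 4 alone 0.38 for Irf1, 0.09 for Irf2, 0.07 for Ifnar1 and 0.03 for Socs1. Leaving out single samples gave -0.06 to 0.53 for H2-D1, -0.18 to 0.47 for H2-K1, -0.03 to 0.38 for Tap1, -0.16 to 0.30 for Cd1d1 and -0.29 to 0.18 for Socs1.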
